A study of Mus musculus with 9 samples.

Results

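NF-kB is a family of dimeric transcription factors, and its subunits and feedback inhibitors were followed as 10 genes out of the 55487 mouse genes in the deposited count table. They were taken by gene symbol: the subunits Rela, Nfkb1, Nfkb2, Relb and Rel, the I-kB family inhibitors Nfkbia, Nfkbib, Nfkbie and Nfkbiz, and the ubiquitin-editing enzyme gene Tnfaip3. Each symbol matched 1 row, and each of the 10 genes passed the filter on low counts. In resting cells the dimers are held in the cytoplasm by classical I-kB proteins. Signals from TNF, interleukin-1 or Toll-like receptors activate the I-kB kinase complex, the I-kB proteins are degraded, and the dimers enter the nucleus. Genes for several inhibitors are themselves NF-kB targets, which closes a negative feedback loop, and in the kidney tubule the pathway is known for its part in the inflammatory response to injury.

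The cells were PT-22, a mouse kidney line labelled as proximal tubule, with the genotype Pax2-/-, Pax8fl/fl, Rosa-CreERT2 and with Pax8 in the doxycycline-inducible vector pTRIPZ. All 9 libraries share this background and culture in 3% serum, as far as the labels say. Of the 3 groups of 3 libraries (replicates A, B and C), the day 0 group was untreated. The day 6 group had received 4-hydroxytamoxifen at 1 uM to delete the floxed Pax8, for 2 days per the treatment protocol, within a depletion period of 6 days per the series design. The day 12 group then received doxycycline at 1 ug/ml, added every 2 days, to induce the vector. Effects of culture time, of either drug and of Pax8 cannot be told apart, since no vehicle control and no later library without doxycycline was used here. The sources do not say whether the replicates were separate cultures, and the p-values therefore describe library-to-library spread that could be technical.

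Library totals were 56398623 to 86767334 counts, and a member held between 416 and 14583 counts in a library. Pax8 did not fall by day 6: it stood at 291 ± 1.67 CPM (TMM-normalised counts scaled to a common library size; mean ± SD, n = 3 here and below) at day 0, 405 ± 5.87 at day 6 and 496 ± 7.79 at day 12, and a count over the whole gene cannot check an exon deletion. Pax2, deleted per the genotype, still had 31.9 ± 2.36, 46.9 ± 3.23 and 52.3 ± 3.19 CPM. Groups are named by day below. The labelled cell type was only in part borne out by its markers: 5 of 14 proximal tubule markers reached 1 TPM at day 0, while Slc34a1 and Slc22a6 were at 0 in every library. Those markers moved in opposite directions: Lrp2 had 33.3, 5.2 and 7.41 TPM at days 0, 6 and 12, and Aqp1 65.2, 184 and 216, and their part in the results was not tested. The mitochondrial share of the counts was 6.66% to 7.18% at days 0 and 6 and 2.1% to 3.96% at day 12.

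Before the values, the promoters of the members that hold a match to the sequence NF-kB dimers read are shown. The kappa B consensus, a motif 10 bases long, was searched on both strands in the 250 bases upstream of each RefSeq start site (build GRCm38.p6). Of the 10 genes, 7 had an entry (Nfkb2, Rela, Rel, Nfkbia, Nfkbib, Nfkbie and Tnfaip3), and Nfkb1, Relb and Nfkbiz had none. A match stood in 5 of the 7, namely Nfkb2, Rel, Nfkbia, Nfkbie and Tnfaip3, and in 4.46% of the 27025 genes of the table. The sequences run 5′ to 3′ on the strand of the gene, and capitals mark the matches. They lie at chr12:55492648-55492897 (Nfkbia, minus strand), chr17:45555450-45555699 (Nfkbie, plus), chr10:19015411-19015660 (Tnfaip3, minus), chr19:46304487-46304736 (Nfkb2, plus) and chr11:23770970-23771219 (Rel, minus).
Nfkbia: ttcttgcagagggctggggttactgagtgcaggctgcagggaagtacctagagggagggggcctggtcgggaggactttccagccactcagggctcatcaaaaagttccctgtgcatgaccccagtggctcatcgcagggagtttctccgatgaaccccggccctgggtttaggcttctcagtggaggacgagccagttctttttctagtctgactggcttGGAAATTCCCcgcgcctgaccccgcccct
Nfkbie: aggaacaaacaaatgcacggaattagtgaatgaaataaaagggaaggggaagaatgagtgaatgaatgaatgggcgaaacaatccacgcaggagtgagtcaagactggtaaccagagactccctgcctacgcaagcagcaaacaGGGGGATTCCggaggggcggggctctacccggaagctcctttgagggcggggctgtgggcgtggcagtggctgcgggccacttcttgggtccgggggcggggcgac
Tnfaip3: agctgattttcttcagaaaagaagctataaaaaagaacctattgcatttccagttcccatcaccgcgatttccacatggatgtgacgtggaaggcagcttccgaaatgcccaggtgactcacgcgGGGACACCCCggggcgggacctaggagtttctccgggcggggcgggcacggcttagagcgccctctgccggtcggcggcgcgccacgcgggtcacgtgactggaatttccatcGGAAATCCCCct
Nfkb2: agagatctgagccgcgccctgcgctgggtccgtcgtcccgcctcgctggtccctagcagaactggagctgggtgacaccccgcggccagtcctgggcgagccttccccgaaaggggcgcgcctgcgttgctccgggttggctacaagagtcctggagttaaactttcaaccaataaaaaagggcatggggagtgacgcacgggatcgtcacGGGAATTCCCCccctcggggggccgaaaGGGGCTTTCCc
Rel: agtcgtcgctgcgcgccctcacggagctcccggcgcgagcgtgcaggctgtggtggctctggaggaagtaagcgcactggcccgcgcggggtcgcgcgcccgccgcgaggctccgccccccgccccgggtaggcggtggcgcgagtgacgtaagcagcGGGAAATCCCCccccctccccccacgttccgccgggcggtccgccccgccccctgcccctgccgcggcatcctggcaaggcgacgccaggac

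The Nfkbia match began 29 bases and the Nfkbie match 106 bases before the start site. Tnfaip3 held 1 match from base 125 and 1 from base 12 upstream. In Nfkb2 a run of 11 bases that holds 2 overlapping matches began 39 bases upstream and a further match 11 bases upstream; the windows of its 2 other annotated starts held 1 match each. A second annotated start of Tnfaip3 had no match in its window. Rel held a run of 2 overlapping matches from base 92. No match was found in these windows of Rela and Nfkbib, which says only that these letters are not there. A match is a description of the sequence and not a measured binding site.

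Between day 0 and day 6, 8 of the 10 genes rose and 2 fell (edgeR quasi-likelihood test, adjusted p under 0.05). In the same comparison 64.9% of the 16353 genes tested were called, 33.5% as risen and 31.4% as fallen. The median log2 fold change of the members was 0.45, beside 0.022 for all genes tested. The rise was uneven. Nfkbie, Tnfaip3 and Nfkbia rose by 7.37-fold, 6.06-fold and 3.45-fold, Relb by 1.88-fold, and the other subunits by 1.14-fold to 1.46-fold. These were the 3 members that rose by at least 2-fold, as did 9.66% of all genes. The plot of CPM in each library shows the 10 genes side by side.

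**Figure D1:**
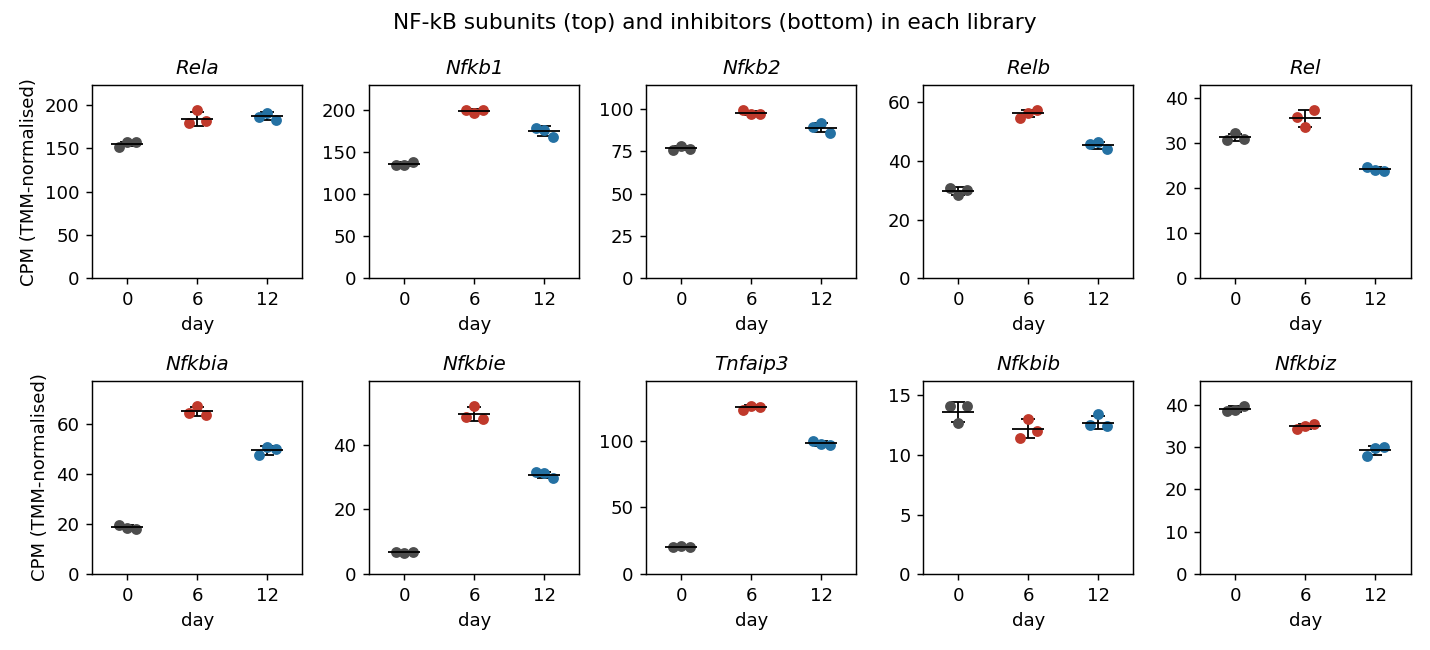
TMM-normalised CPM (y axis, starting at 0) of each gene at day 0, 6 and 12 (x axis); points are single libraries, and horizontal marks with bars are the mean ± SD of 3 libraries. Nfkbie, Tnfaip3 and Nfkbia stand far above their day 0 level at day 6 and partly lower at day 12, whereas Nfkbib libraries overlap across days.

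Nfkbie (ENSMUSG00000023947, GRCm38 chromosome 17, 45555703 to 45563169, plus strand) encodes I-kB epsilon, a classical inhibitor that holds dimers in the cytoplasm. In replicates A, B and C, day 0 gave 6.76, 6.65 and 6.72 CPM, day 6 gave 48.5, 51.9 and 47.9, and day 12 gave 31.4, 31.1 and 29.7. The 3 groups did not overlap, and each day 12 library lay between the day 0 and day 6 libraries. By day 6 it had risen by 2.88 ± 0.047 (SE) on the log2 scale (edgeR, adjusted p = 2.18e-16). The later step to day 12 was −0.69 ± 0.04 (edgeR, adjusted p = 5.69e-09). Only 363 of the 16353 genes tested, 2.22%, had a larger rise by day 6.

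Tnfaip3 (ENSMUSG00000019850, chromosome 10, 19000910 to 19015657, minus strand) encodes an enzyme that edits ubiquitin chains on signalling proteins such as RIPK1 and so limits the activation of the I-kB kinase complex. Its libraries held 20.3, 21 and 20.4 CPM at day 0, 123, 126 and 125 at day 6, and 100, 97.8 and 96.4 at day 12. The spread within a group was at most 1.97% of the mean, and the groups were well apart. Its log2 fold change was 2.60 ± 0.032 by day 6 (edgeR, adjusted p = 8.62e-18) and −0.35 ± 0.028 from day 6 to day 12 (adjusted p = 2.06e-07).

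Nfkbia (ENSMUSG00000021025, chromosome 12, 55489410 to 55492647, minus strand) encodes I-kB alpha, the fast feedback inhibitor that is resynthesised after NF-kB activation and takes dimers back out of the nucleus. It measured 19.8, 18.6 and 18.2 CPM at day 0, 64.7, 67.4 and 63.6 at day 6, and 47.8, 51 and 50.1 at day 12. As with the other 2 induced inhibitors, all day 12 libraries lay below all day 6 libraries and above all day 0 libraries. Its log2 fold change was 1.79 ± 0.042 by day 6 (edgeR, adjusted p = 1.16e-14) and −0.40 ± 0.039 thereafter (adjusted p = 1.29e-06).

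The other I-kB genes did not share this rise. Nfkbib (ENSMUSG00000030595, chromosome 7, 28758251 to 28767512, minus strand) encodes I-kB beta, a classical inhibitor related to I-kB alpha. It stood at 14.1, 12.7 and 14.1 CPM at day 0, then 11.4, 13 and 12 at day 6, then 12.5, 13.4 and 12.4 at day 12, and the libraries of all 3 days overlapped. Its fall by day 6 (log2 fold change −0.16 ± 0.063, edgeR adjusted p = 0.0343) was called with all 9 libraries only narrowly. Without day 0 replicate A or C the adjusted p was 0.118 or 0.103, and without day 6 replicate A or C it was 0.158 or 0.0829. On log2(TPM + 1) the change was −0.11 and was not called (limma, adjusted p = 0.12). The difference between day 12 and day 0 was −0.10 with a 95% interval from −0.23 to 0.03, and 0.17 on log2(TPM + 1) (limma, adjusted p = 0.0244). Its exons share 356 bases with genes on the other strand (Sirt2 and Ccer2), and the strand setting of the counting is not given in the sources used here.

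Nfkbiz (ENSMUSG00000035356, chromosome 16, 55811375 to 55838899, minus strand) encodes I-kB zeta, an atypical nuclear member of the family that works with NF-kB dimers on a subset of their targets. Its replicates A, B and C were at 38.5, 38.7 and 39.7 CPM at day 0, 34.2, 34.9 and 35.5 at day 6, and 27.9, 29.7 and 29.9 at day 12. In CPM the groups did not overlap and stepped down from each day to the next. In TPM days 6 and 12 overlapped, at 14.1 to 14.6 and 13.5 to 14.5. The log2 fold change was −0.16 ± 0.037 by day 6 (edgeR, adjusted p = 0.00145), and day 12 lay −0.42 ± 0.038 from day 0 (adjusted p = 1.2e-07). On log2(TPM + 1) the step by day 6 was −0.088 and was not called (limma, adjusted p = 0.13).

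**Figure D2:**
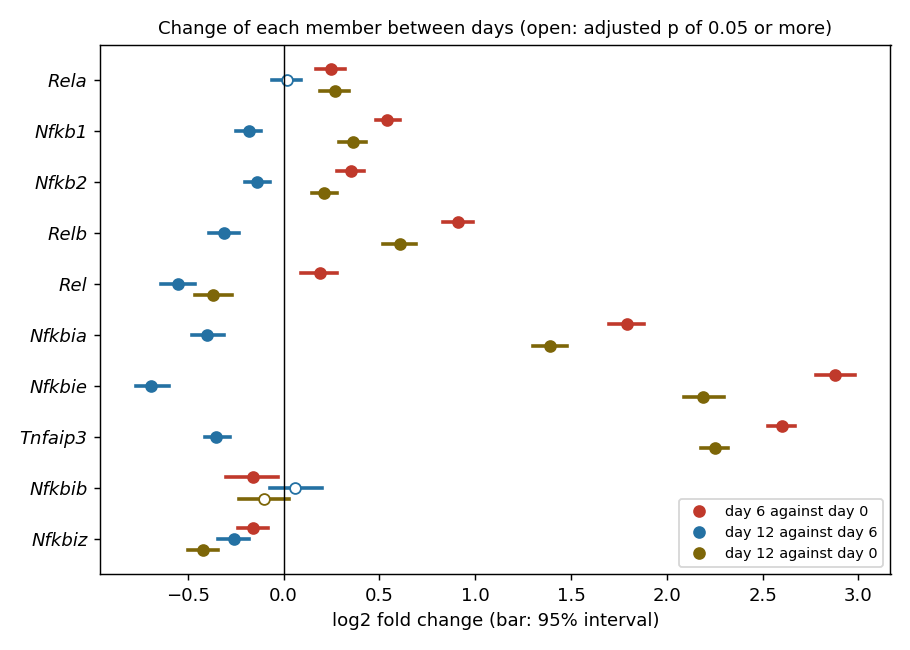
Fitted log2 fold change (x axis) of each gene (y axis) for the 3 comparisons, with 95% intervals as bars; open points did not pass the test. The intervals of Nfkbia, Nfkbie and Tnfaip3 for day 6 against day 0 lie above 1.70, and that of Relb, the highest among the subunits, ends at 0.99.

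Among the subunits, Relb (ENSMUSG00000002983, chromosome 7, 19606217 to 19629438, minus strand) changed most by day 6. Its product pairs with the processed product of Nfkb2 in the noncanonical branch of the pathway. It measured 30.9, 28.4 and 30.1 CPM at day 0, 54.8, 56.4 and 57.3 at day 6, and 45.9, 46.4 and 44.1 at day 12, with no overlap between days. In TPM days 6 and 12 overlapped, at 40.5 to 42.8 and 40 to 42. The log2 fold change was 0.91 ± 0.039 (edgeR, adjusted p = 1.16e-11) and then −0.31 ± 0.037 (adjusted p = 1.14e-05).

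Nfkb2 (ENSMUSG00000025225, chromosome 19, 46304320 to 46312385, plus strand), whose precursor protein also acts as an inhibitor through its own ankyrin repeats, rose less. Its levels were 75.8, 78 and 76.1 CPM at day 0, 99.1, 97 and 97.1 at day 6, and 89.1, 91.6 and 85.9 at day 12. In CPM the day 12 libraries lay between those of the other days, without overlap. In TPM they lay above those of day 6, at 48.9 to 50.8 beside 46.6 to 47.9. The log2 fold change was 0.35 ± 0.031 by day 6 (edgeR, adjusted p = 7.74e-08) and −0.14 ± 0.031 after it (adjusted p = 0.00218). Its exons share 830 bases with genes on the other strand (Psd and AC114539.1), so part of its count cannot be assigned with certainty.

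Nfkb1 (ENSMUSG00000028163, chromosome 3, 135584655 to 135691547, minus strand) encodes the precursor of the DNA-binding partner of RELA in the most common dimer. It stood at 135, 135 and 139 CPM at day 0, 200, 197 and 200 at day 6, and 179, 177 and 168 at day 12. In CPM all 3 days were apart, with day 6 highest. In TPM days 6 and 12 overlapped, at 85.8 to 89.1 and 84.8 to 91.3. The log2 fold change was 0.54 ± 0.031 by day 6 (edgeR, adjusted p = 5.34e-10) and −0.18 ± 0.031 after it (adjusted p = 0.000212).

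Rela (ENSMUSG00000024927, chromosome 19, 5637483 to 5648130, plus strand), the main activating subunit, held 152, 157 and 157 CPM at day 0, 179, 194 and 181 at day 6, and 186, 191 and 183 at day 12. Day 6 and day 12 libraries overlapped in CPM, and both lay above day 0. In TPM those of day 12 lay above those of day 6, at 139 to 149 beside 126 to 136. The rise by day 6 was 0.25 ± 0.035 on the log2 scale (edgeR, adjusted p = 1.26e-05), and the difference between day 12 and day 6 was 0.02 with a 95% interval from −0.06 to 0.09 (adjusted p = 0.696).

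Rel (ENSMUSG00000020275, chromosome 11, 23736847 to 23770970, minus strand), a subunit known mainly from lymphoid cells, followed another course. It stood at 30.5, 32.1 and 30.9 CPM at day 0, 35.7, 33.4 and 37.2 at day 6, and 24.7, 24 and 23.8 at day 12. Its day 12 libraries lay below those of both earlier days. The log2 fold change was 0.19 ± 0.043 by day 6 (edgeR, adjusted p = 0.00142), −0.55 ± 0.044 from day 6 to day 12 (adjusted p = 1.46e-07), and day 12 lay −0.37 ± 0.044 from day 0 (adjusted p = 2.84e-06). On log2(TPM + 1) the difference from day 0 was −0.084 and was not called (limma, adjusted p = 0.279).

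From day 6 to day 12, after doxycycline, 8 of the 10 genes fell and none rose, with Rela and Nfkbib not called (edgeR, adjusted p under 0.05). Of all genes tested 45.3% were called in this comparison, 22.7% as fallen. The median log2 fold change was −0.28 for the members and 0.008 for all genes. None rose by 2-fold, as 2.28% of all genes did. The calls depend on the scaling: log2(TPM + 1) put the median of all genes 0.16 higher at day 12, and there 4 genes were called as fallen (Rel, Nfkbia, Nfkbie and Tnfaip3) and 2 as risen (Rela and Nfkbib), while Nfkb1, Relb and Nfkbiz were no longer called. On that scale 878 of the 16353 genes tested were called as fallen and 7998 as risen. Nfkb2 was 0.076 higher at day 12 there (limma, adjusted p = 0.0664). Relative to each library's median on the TPM scale, an alternative added after the data were seen, the 8 genes called as fallen were the same as in the count test. Of all 16353 genes, 4425 were called as fallen and 2526 as risen with that alternative.

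In all 7 genes rose by day 6 and then fell, as did 12.5% of all genes tested; both comparisons use the day 6 libraries. Of the log2 change between day 0 and day 6, 13.3% was gone at day 12 for Tnfaip3 (12.8% to 13.9% when 1 library was left out), 22.2% for Nfkbia (20.6% to 23.3%) and 23.9% for Nfkbie (22.9% to 24.4%). For the subunits it was 33.5% for Relb (31.1% to 35.1%), 34% for Nfkb1 (28.6% to 37.3%) and 38.8% for Nfkb2 (31.9% to 44.9%). The fall of Rel exceeded its rise, at 297% (268% to 342%). These shares are descriptions and depend on the scaling. On log2(TPM + 1) Relb changed by 0.95 and then −0.038, Nfkb1 by 0.59 and then −0.004, and Nfkb2 by 0.39 and then 0.076. On the same scale Tnfaip3 changed by 2.65 and then −0.21, Nfkbia by 1.83 and then −0.22, and Nfkbie by 2.66 and then −0.45. Against day 0, 7 genes were higher at day 12 and 2 (Rel and Nfkbiz) lower (edgeR, adjusted p under 0.05), in a comparison that called 66.4% of all genes and 34.7% as higher. Tnfaip3 was 4.77-fold, Nfkbie 4.57-fold and Nfkbia 2.62-fold above day 0, the 3 members at 2-fold or more, as were 9.43% of all genes.

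Levels of different genes were compared per transcript length, in TPM. At day 0 the order was Rela (107 ± 4.92 TPM), Nfkb1 (58 ± 1.43), Nfkb2 (35.7 ± 0.878), Nfkbia (22.4 ± 0.672), Relb (21.2 ± 1.06), Nfkbib (18.1 ± 0.902), Nfkbiz (15.2 ± 0.22), Tnfaip3 (7.34 ± 0.269), Rel (5.6 ± 0.18) and Nfkbie (3.94 ± 0.0361). In this order the libraries of Nfkbia and Relb overlapped, and those of the other neighbours did not. At day 6 Nfkbia (82.3 ± 0.16 TPM) and Tnfaip3 (51.2 ± 1.96) stood next below Rela (129 ± 5.95) and Nfkb1 (87.7 ± 1.7). Nfkbie had passed Nfkbib and Nfkbiz at 30.3 ± 1.27 TPM, and Rel was lowest at 6.61 ± 0.397; no neighbours overlapped. At day 12 the order was that of day 6 except that Nfkb2 (49.8 ± 0.958 TPM) stood above Tnfaip3 (44.1 ± 2.26), and the libraries of Tnfaip3 and Relb (40.8 ± 1.06) overlapped. Mitochondrially encoded genes held 11.4% to 15% of TPM at day 12 and 19.9% to 21.7% before, and their part in these levels was not tested.

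Ratios within a library do not depend on its scaling factor. The 3 classical I-kB genes (Nfkbia, Nfkbib and Nfkbie) together had 19.5% ± 0.652 of the summed TPM of the 5 subunits at day 0, 41.3% ± 0.123 at day 6 and 34.5% ± 1.2 at day 12. The libraries of the 3 days did not overlap, at 18.9% to 20.2%, 41.3% to 41.5% and 33.2% to 35.5%. These ratios are given as a description, with no test. The make-up of the inhibitor sum changed as well. Nfkbia, the largest part, went from 50.4% ± 1.62 of it at day 0 to 63.7% ± 1.17 at day 6 and 62.4% ± 1.33 at day 12. Nfkbie went from 8.86% ± 0.117 to 23.4% ± 0.595 and 19.4% ± 0.714. Nfkbib held 40.8% ± 1.72, 12.9% ± 0.64 and 18.2% ± 0.644, although its own level was 18.1, 16.7 and 20.5 TPM. Among the subunits, Relb had 9.29% ± 0.514 of the sum at day 0, 13.4% ± 0.284 at day 6 and 12.5% ± 0.105 at day 12, and Rela 47.1% ± 0.927, 41.3% ± 1.34 and 43.8% ± 0.418. Nfkb2 and Relb together, the noncanonical pair, had 25% ± 0.788, 28.5% ± 0.301 and 27.8% ± 0.373.

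**Figure D3:**
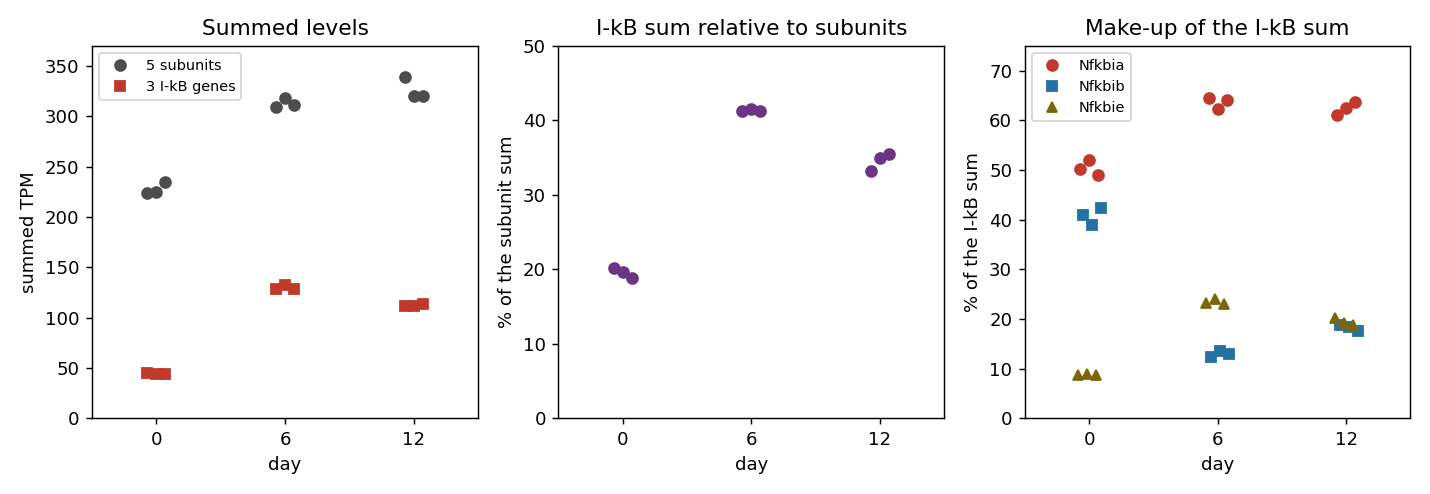
Left, summed TPM of the 5 subunits and of the 3 classical I-kB genes; middle, the I-kB sum as a percentage of the subunit sum; right, the percentage of the I-kB sum held by each gene, all per library (points) against day. The I-kB sum moves from 18.9% to 20.2% of the subunit sum at day 0 to 41.3% to 41.5% at day 6. In its make-up the shares of Nfkbia and Nfkbie are higher at day 6 than at day 0, and that of Nfkbib is lower.

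The genes of the pathway upstream of NF-kB were described by lists, whose counts by day 6 stand beside 33.5% risen and 31.4% fallen of all genes tested, with a median log2 fold change of 0.022. Of the 11 activating ligand genes 6 were tested, and 3 rose and 1 fell by day 6 (50% and 16.7%, median 0.52). Tnfsf15, a TNF family cytokine, went from 2 ± 0.331 to 11.2 ± 0.804 and 5.97 ± 0.188 CPM at days 0, 6 and 12. Tnfsf12, which encodes TWEAK, a ligand of the noncanonical branch, stood at 14 ± 0.681, 19.9 ± 0.108 and 21.3 ± 0.895 CPM. Of the 3 that rose 1 was Tnf, at 0.00533 ± 0.00923, 0.221 ± 0.0632 and 0.1 ± 0.0139 CPM. The 1 that fell was Lta, at 0.254 ± 0.111, 0.0254 ± 0.00992 and 0.083 ± 0.0497 CPM. Both are named after their values were seen. Genes this low can pass the filter on low counts through the group where they are high, which favours a call in that direction. The same limit holds for Tlr6 and Cd40, counted as risen below, at 0.0691 ± 0.0718 and 0.0574 ± 0.0758 CPM at day 0. Il1a and Il1b did not pass the filter.

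Of 23 tested genes of canonical receptors and adaptors, 18 rose and 3 fell by day 6 (78.3% and 13%, median 0.59). Tnfrsf1b, the second TNF receptor gene, had 10.8 ± 0.192 CPM at day 0, then 71.9 ± 2.31 at day 6, then 58.8 ± 2.26 at day 12. Irak2, a kinase of interleukin-1 and Toll-like receptor signalling, stood at 7.55 ± 0.301, 23.6 ± 0.0929 and 26.5 ± 0.679. The interleukin-1 receptor gene Il1r1 went the other way, from 119 ± 4.78 to 27.5 ± 1.17 and 24.3 ± 1.27 CPM (log2 fold change −2.11 ± 0.044 by day 6, edgeR adjusted p = 3.02e-15).

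Of 9 tested genes of noncanonical receptors and of the control of the kinase NIK, 7 rose and 1 fell by day 6 (77.8% and 11.1%, median 0.54). Map3k14, which encodes NIK, measured 18.9 ± 0.42, 30 ± 0.221 and 26.4 ± 0.732 CPM at days 0, 6 and 12. Traf1, a signalling adaptor, had 2.77 ± 0.307, 12.3 ± 0.801 and 8.25 ± 0.234 CPM, and Birc3, a ubiquitin ligase that restrains NIK, 6.76 ± 0.312, 15.8 ± 0.517 and 10.1 ± 0.332.

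The kinases and ubiquitin ligases upstream of I-kB proteins had 6 of 17 tested genes risen (35.3%, beside 33.5% of all genes) and 4 fallen (23.5%, beside 31.4%) by day 6, with a median of 0.03. At day 12, 11 of the 17 were lower than at day 0 (64.7%, beside 31.7% of all genes) and 5 higher (29.4%, beside 34.7%). These calls depend on the scaling. In TPM, Chuk, Tab2 and Tab3 were again lower at day 12 than at day 0, while the other genes called lower were higher. At days 0 and 12 Chuk stood at 57.2 and 54.4 TPM, Ube2n at 235 and 270, Fbxw11 at 57.3 and 66, and Ikbkb at 34.6 and 37.3. By day 6 the catalytic kinase subunit genes Chuk and Ikbkb fell by 1.23-fold and 1.06-fold (edgeR, adjusted p = 1.55e-06 and 0.017). Over the same step the regulatory subunit gene Ikbkg rose by 1.08-fold (edgeR, adjusted p = 0.0109). The genes of this list named by size of change by day 6 were Ikbke, Tbk1 and Tab3. Ikbke, an inducible kinase related to the complex, had 7.94 ± 0.305 and 14.9 ± 0.643 CPM at days 0 and 6. Tbk1 had 50.4 ± 1.47 and 63.2 ± 1.54, and Tab3 53.1 ± 1.31 and 43 ± 1.34.

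Of 16 other inhibitor genes 7 rose and 5 fell by day 6 (43.8% and 31.2%, median 0.07). Those named by size were Tnip1, a ubiquitin-binding partner of TNFAIP3 (76.1 ± 2.93, 220 ± 7.86 and 220 ± 11.5 CPM at days 0, 6 and 12), the RNase gene Zc3h12a (3.19 ± 0.212, 9.12 ± 0.292 and 5.73 ± 0.352) and Bcl3, an atypical nuclear I-kB gene (4.69 ± 0.366, 13.1 ± 0.329 and 9.33 ± 0.544). Between day 6 and day 12 Tnip1 differed by 0.00 ± 0.041 on the log2 scale (edgeR, adjusted p = 0.956).

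Of 34 tested target genes outside the pathway, 30 rose and 4 fell by day 6 (88.2% and 11.8%, beside 33.5% and 31.4% of all genes; median 2.95). From day 6 to day 12, 25 fell and 2 rose (73.5% and 5.88%, beside 22.7% and 22.6% of all genes; median −0.55). The adhesion receptor gene Icam1 stood at 0.107 ± 0.0207, 5.68 ± 0.235 and 2.31 ± 0.0959 CPM at the 3 days and the chemokine gene Ccl5 at 0.644 ± 0.253, 61.3 ± 4.01 and 10 ± 1.61. The acute-phase gene Saa3 had 2 counts over the day 0 libraries and 3493 over the day 6 libraries, a ratio of 1884 with a 95% counting interval from 521 to 15561. Genes such as Saa3, Mmp13 (0 CPM at day 0) and Nos2 (0.0468 ± 0.0427) passed the filter on low counts through later groups, and could be called only as risen. Csf3, which fell, was also low, at 0.201 ± 0.051 CPM at day 0. The percentages and the median include such genes, and the list was chosen with earlier results of these data known.

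**Figure D4:**
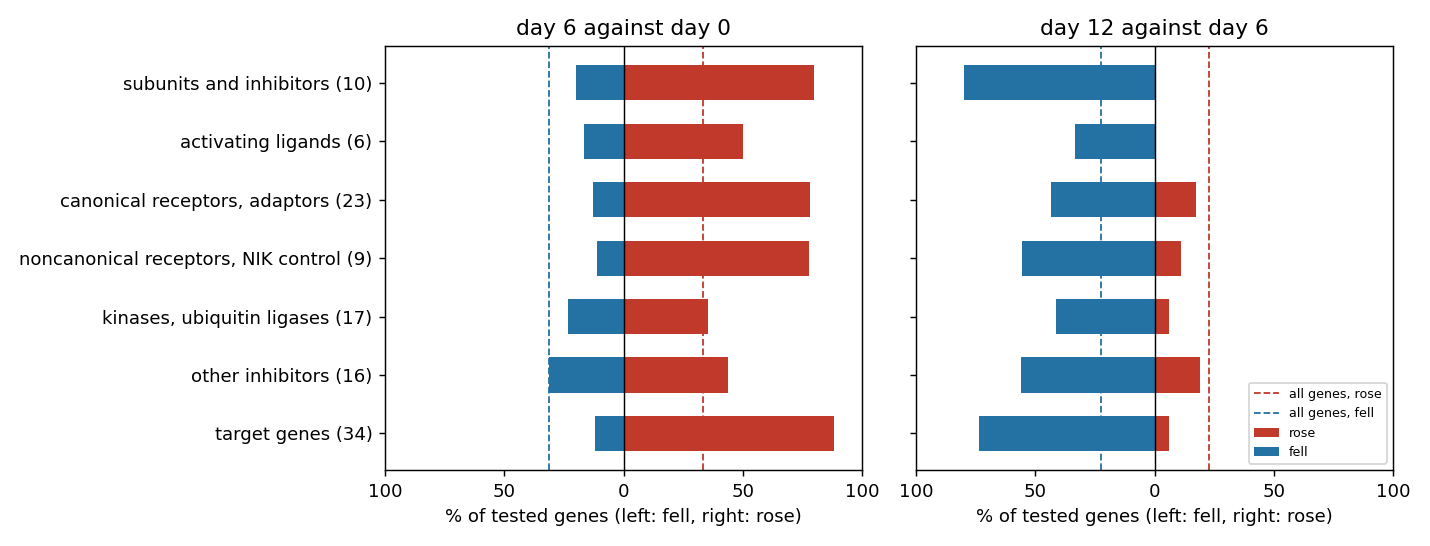
Percentage of the tested genes of each list that rose (right of 0) or fell (left of 0) for day 6 against day 0 and day 12 against day 6; dashed lines mark the same percentages over all 16353 genes tested, and numbers in brackets count the genes tested. Receptors, adaptors and targets rose far beyond the dashed line by day 6, with 78.3% and 88.2% risen, and kinases stood near it with 35.3%.

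Markers of other cell types were followed beside these changes. Immune cell markers summed to 33.1 to 36.8 TPM at day 0, 27.3 to 31.2 at day 6 and 31.7 to 34.9 at day 12, with Cd3e, Cd3g and Ms4a1 at 0 in every library and Cd68 and Csf1r giving most of the sum. Its members moved in different directions: Lyz2 had 0.417, 3.55 and 2.52 TPM at days 0, 6 and 12, Csf1r 12.1, 3.85 and 7.41, Ptprc 0.633, 0.01 and 0.0967, and Cd68 21.5, 21.9 and 22.5. Stromal markers summed to 19.8 to 21 TPM at day 0, 102 to 112 at day 6 and 150 to 174 at day 12, mostly from Postn, Acta2 and Tagln at the later days. Dcn went the other way by day 6, with 4.3, 0.4 and 5.26 TPM, and Pdgfra reached no more than 0.02 TPM. The part of these changes in the results on NF-kB genes was not tested. In bulk RNA, fewer cells of a type and less RNA per cell cannot be told apart.

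Across the 9 libraries, the genes most like Tnfaip3 by Pearson correlation of log2(CPM + 0.5) were the complement gene C3 (r = 0.9998), the chemokine gene Ccl2 (0.9996) and the receptor tyrosine kinase gene Axl (0.9996). Those most like Relb were Cbs (0.9975), Bcl3 (0.9970) and Slc2a6 (0.9969). Of the 10479 genes compared, 402 had an r of 0.99 or more with Tnfaip3 and 128 with Relb. The libraries fall into 3 groups, so these values describe how alike the course over the 3 days is. They do not depend on the level or on the size of the change. C3 stood at 14.4, 673 and 379 CPM at days 0, 6 and 12, Axl at 219, 511 and 455, and Tnfaip3 at 20.6, 125 and 98.1. Among the members, Nfkbia, Nfkbie, Tnfaip3, Relb, Nfkb1 and Nfkb2 correlated with each other at 0.95 or more, while Rel stood at 0.16 with Nfkb1 and at −0.06 with Tnfaip3.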

How the data were processed

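Polyadenylated RNA of 9 libraries was measured. The authors deposited gene-level counts as whole numbers, and beside them TPM values that add up to an equal sum in every library. The submitters' processing notes name STAR 2.7.8a, RSEM 1.3.3, cutadapt 2.3, FastQC 0.11.8 and the build GRCm38; what each did, which annotation served and how strand was treated are not stated. Counts from RSEM would be rounded estimates with shared reads divided between genes. The 4 transgene rows (0.00204% to 0.00284% of counts; Cre and 3 fluorescent proteins) were left out.

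Genes were filtered with filterByExpr (16353 left), TMM-scaled, and compared in edgeR 4.0.16 (R 4.3.3, quasi-likelihood, 1 fit of 9 libraries, 6 residual degrees of freedom) with Benjamini-Hochberg adjustment over all genes tested; the threshold was 0.05. Each SE was the log2 fold change divided by the square root of F. TPM were tested on the log2 scale with limma 3.58.1 and counts with DESeq2 1.42.0 as alternatives. The fit was tested on simulated counts for day 6 against day 0, with 50 genes changed at each size. It recovered 56% of log2 changes of 0.25, 66% of 0.5, 92% of 1 and 100% of 2, and called 0.0847% of unchanged genes. Far fewer genes changed there than were called in the data, so the scaling and the adjustment of p-values were not tested under a change as wide. The changed genes were not matched to the members in level, so these percentages do not give the recovery for the members. Gene positions are from GENCODE M21 and promoters from RefSeq, both on GRCm38. Beside the 10 genes, the I-kB kinase genes and Map3k14, up to 3 genes per list were named, those with the largest change by day 6 that passed the test without overlap of libraries at 5 CPM or more. The 3 genes most like Tnfaip3 and Relb had at least 5 CPM in 1 group, with predicted models left out. The members and lists were chosen with earlier results of these data known. The symbol Skp1 of the kinase list was not matched.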

Additional observations from a re-analysis of the deposited data

How the results depend on the processing

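Each of the 30 differences (10 genes, 3 comparisons) was recomputed under 18 other settings and 1 added after seeing the data. With relative log expression or upper-quartile factors, without mitochondrially encoded genes, without a filter, with DESeq2 and with only the 2 groups compared, no call on a member changed. With the replicate letter as a replicate block, 8 genes rose and 2 fell by day 6, 0 rose and 8 fell from day 6 to day 12, and 7 were higher and 2 lower at day 12 than at day 0, as without it; same-letter libraries deviated together at correlations from −0.0834 to 0.0783, so the letters were not taken as pairs. Leaving out 1 library gave 1 to 2 genes fallen by day 6 and reversed the uncalled difference of Rela between day 12 and day 6 (−0.003 without day 6 replicate A; the range was −0.003 to 0.059).

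On log2(TPM + 1) and on log2(TPM + 0.1), 0 genes fell by day 6, 2 rose and 4 fell from day 6 to day 12, and 1 was lower at day 12 than at day 0. Reversed on those scales were Nfkb2 from day 6 to day 12 (0.076 and 0.078) and Nfkbib from day 0 to day 12 (0.17 and 0.18). With TPM centred by library, Rela reversed from day 6 to day 12 (−0.065, adjusted p = 0.291) and the rise of Rel by day 6 was not called (adjusted p = 0.0794). Of all calls from day 6 to day 12, 50% were higher with TMM, 60.5% with upper-quartile factors, 90.1% on log2(TPM + 1) and 36.3% with TPM centred by library; for day 12 against day 0 these were 52.3%, 56.5%, 81.3% and 35.6%. On TMM-normalised counts the Nfkb2 and Relb share was 26.9% at day 6 and 25.8% at day 12. Counts are not divided by transcript length, so these shares cannot be set against the TPM share of day 0. The causes were not tested. Each member had at least 416 counts in each library.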

Other observations

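Toll-like receptor genes, chosen for description after their values were seen, moved unevenly. Tlr2, a receptor of bacterial lipoproteins, had 31 ± 1.05, 93.2 ± 3.28 and 62.5 ± 1.07 CPM on days 0, 6 and 12 (mean ± SD, n = 3). Its co-receptor gene Cd14 had 31.5 ± 1.89, 83.4 ± 1.32 and 69.3 ± 1.13 CPM, and Tlr5, the flagellin receptor gene, 7.92 ± 0.501, 15.6 ± 0.888 and 11.4 ± 0.685. The endotoxin receptor gene Tlr4 was at 40.6 ± 0.887, 42.1 ± 2.68 and 42.5 ± 0.58 CPM (log2 fold change 0.05 by day 6, edgeR adjusted p = 0.289). The shared adaptor gene Myd88 stood at 9.94 ± 0.29, 16 ± 0.902 and 13.3 ± 0.323 CPM.

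The kappa B consensus, counted in the same windows of 250 bases, stood in 10 of 26 target genes with a promoter entry (38.5%), in 4 of 12 other inhibitor genes (33.3%), in 3 of 22 genes of canonical receptors and adaptors (13.6%), in 1 of 9 ligand genes (11.1%), in 1 of 10 genes of noncanonical receptors and NIK control (10%) and in 1 of 14 genes of kinases and ubiquitin ligases (7.14%), beside 4.46% of all genes in the table. These are descriptions of sequence, with no measure of binding.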
